A study of Mus musculus with 9 samples.

Results

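The genes described are 9 that are typical of macrophages: the complement subunits C1qa, C1qb and C1qc, the apolipoprotein gene Apoe, the cathepsins Ctss and Ctsb, the scavenger receptor gene Cd68, and the lysozymes Lyz1 and Lyz2. They were chosen by gene name among the probes of a mouse expression array, and each was read from the probe with the highest mean level where it had several. All 9 genes passed the filter on dim probes, of 23016 genes or regions that passed it among 36413 on the array. Levels are the authors' log2 values, in which 1 unit is a doubling, and every difference below is on that log2 scale.

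C1q is the recognition part of the classical complement pathway and is built from the products of C1qa, C1qb and C1qc. Macrophages are a main source of it, and they also secrete lysozyme, which cleaves bacterial cell walls, and apolipoprotein E, which carries lipid. Cathepsins S and B are proteases of the endosome and lysosome, and CD68 is a glycoprotein of the same compartment. Drosha and Dicer act in sequence in microRNA biogenesis: Drosha releases the hairpin precursor in the nucleus and Dicer cuts it to the mature duplex in the cytoplasm.

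RNA was measured on 9 one-colour Agilent arrays, 3 per group, in cultured mouse LSK cells (lineage-, Sca1+, cKit+), a sorted fraction of bone marrow rich in blood stem and progenitor cells. All mice were female, and all carried the Cre allele Gt(ROSA)26Sor CreERT2, which tamoxifen switches on, the controls included. The other groups were Drosha fl/fl Gt(ROSA)26Sor CreERT2 and Dicer fl/fl Gt(ROSA)26Sor CreERT2, called Drosha-deleted and Dicer-deleted below. Every group was plated at 50000 cells per well in 50 µL and cultured for 72 h. The medium held SCF (50 ng/mL), IL-6 (10 ng/mL), IL-3 (10 ng/mL), 10% serum and 4OH-tamoxifen (250 nM). The labels do not give the age of the mice or say that repeats came from separate animals, so p-values measure only the spread between these samples, which may be technical. Rosa26 is active in most cell types, so the Cre is not specific to a blood lineage.

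Drosha RNA stood at 12.04, 11.88 and 11.85 in the controls and at 8.81, 8.92 and 9.32 in the Drosha-deleted cells, a fall of −2.91 (adjusted p = 0.000153, limma). Dicer1 RNA stood at 9.92, 10.50 and 10.44 in the controls and at 8.99, 9.18 and 8.97 in the Dicer-deleted cells, a difference of −1.24 that did not pass (adjusted p = 0.118, limma). Neither gene's control and deleted groups overlapped. The progenitor gene Kit (11.90 to 13.06) and Ly6a, which encodes Sca1 (10.11 to 12.27), were well above background on all 9 arrays. So were the macrophage genes Csf1r (13.20 to 14.34) and Emr1, now Adgre1 (9.27 to 10.88), so that the cultures held myeloid transcripts beside the progenitor ones in every group. In bulk samples of this kind, fewer cells of a type and less RNA per cell cannot be told apart.

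Several arrays stood apart. The values deposited for control replicate 2 correlated at 0.770 with that sample's own scanner file and at 0.974 with the scanner file of control replicate 3, while the other 8 samples correlated at 0.974 to 0.985 with their own. On the array of control replicate 2, 93.2% of probes were well above background, against 54.2% to 62.3% on the others. Control replicate 3 was alone on a slide of its own. Among the authors' columns, control replicate 2 was closest to control replicate 3 (r = 0.991), and Dicer-deleted replicate 3 was closest to control replicate 1 (r = 0.993). Where leaving out 1 sample moved a member's difference from control by over 1.5 times or turned its sign, the value without that sample is given beside it.

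The probes are 60 bases long, and which exon they lie in was not analysed here. On mm9 the C1q probes lie together on chromosome 4, minus strand, at chr4:136452409-136452468 (C1qa), chr4:136436578-136436637 (C1qb) and chr4:136445766-136445825 (C1qc). The lysozyme probes lie on chromosome 10, minus strand, at chr10:116724862-116724921 (Lyz1) and chr10:116719175-116719234 (Lyz2). Lyz1 and Lyz2 are close paralogs, so the probe sequences are shown to make plain what separates them.
C1qa: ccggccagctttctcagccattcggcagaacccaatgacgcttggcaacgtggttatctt
C1qb: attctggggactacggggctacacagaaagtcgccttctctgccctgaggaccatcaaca
Lyz2: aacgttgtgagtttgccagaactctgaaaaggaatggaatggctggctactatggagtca
Lyz1, 30 bases of its probe: ccaataaccacaggagcaaatctaatctca
The longest run shared by the whole Lyz1 and Lyz2 probes is 6 bases. This compares the probes with each other and not with the other gene's RNA, so it does not show how specific they are. Whether either probe also binds the RNA of the other gene was not tested, and the split between both genes is uncertain to that extent.

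The promoters show what the lysozyme pair and some of the other members have in common. RefSeq's GRCm38.p6 table held 300-base promoter entries for 7 of the 9 genes, and not for C1qa and Ctsb. Each entry includes the first 50 transcribed bases. The ETS-type core GGAAGT, the kind of site that the myeloid factor PU.1 binds, was searched on both strands and is written in capitals below as it reads on the gene's strand, ACTTCC. Each window is printed 5′ to 3′ on the gene's strand.
Lyz1, chr10:117292869-117292988, minus strand: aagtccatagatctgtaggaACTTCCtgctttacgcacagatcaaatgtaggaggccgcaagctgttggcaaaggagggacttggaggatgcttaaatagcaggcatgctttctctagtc
Lyz2, chr10:117282273-117282392, minus strand: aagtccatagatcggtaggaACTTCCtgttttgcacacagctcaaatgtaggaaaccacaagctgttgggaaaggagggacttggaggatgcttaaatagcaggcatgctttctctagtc
Ctss, chr3:95526672-95526791, plus strand: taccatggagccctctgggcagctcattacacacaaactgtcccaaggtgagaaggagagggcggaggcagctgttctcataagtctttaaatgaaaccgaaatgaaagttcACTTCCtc
C1qb, chr4:136886201-136886320, minus strand: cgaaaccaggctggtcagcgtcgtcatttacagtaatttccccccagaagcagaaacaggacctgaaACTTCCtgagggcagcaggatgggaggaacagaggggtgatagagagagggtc
C1qc, chr4:136893005-136893124, minus strand: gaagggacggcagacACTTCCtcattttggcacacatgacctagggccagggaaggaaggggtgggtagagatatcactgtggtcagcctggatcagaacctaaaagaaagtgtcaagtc
The Lyz1 and Lyz2 windows, the 120 bases before each start, were identical at 111 bases (92.5%), and the core begins 100 bases before the start in both. It begins 53 bases before the start in C1qb, 195 in C1qc and 2 in Ctss. In Cd68, which is not printed, the core begins at base 12 after the start, within the transcribed part.

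The core GGAAGT was present in 6 of 7 member genes with an entry (C1qb, C1qc, Cd68, Ctss, Lyz1 and Lyz2) and in 23.8% of the 32851 promoters in the table. Members are counted by gene and the table by promoter entry, and the similar promoters of Lyz1 and Lyz2 count as 2 of the 6. The longer form GAGGAAGT, which contains the core, was present in C1qc and Ctss and in 3.2% of all promoters. The C/EBP-type motif TTGCNNAA was in Cd68 and Lyz1 (10.8% of all promoters), and the AP-1-type motif TGANTCA was in Cd68 (7.81%). The E-box CACGTG was in 0 of the 7 (7.15%). A match describes letters in a window and says nothing of binding in these cells.

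No member passed the adjusted threshold of 0.05 in any comparison (limma, Benjamini-Hochberg over all 23016 genes or regions). Over all genes, 0.169% were called between Drosha-deleted and control cells, 0.0174% between Dicer-deleted and control cells and 0.0565% between Drosha-deleted and Dicer-deleted cells, so 0 of 9 members is near the background in each. The test of any difference among the groups called 0.0912% of all genes and 0 members. Of 9 members, 6 were below 0 between Drosha-deleted and Dicer-deleted cells, as were 49.3% of all genes. The values below are therefore described with their spread, and the intervals on the differences are 95% confidence intervals.

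**Figure D1:**
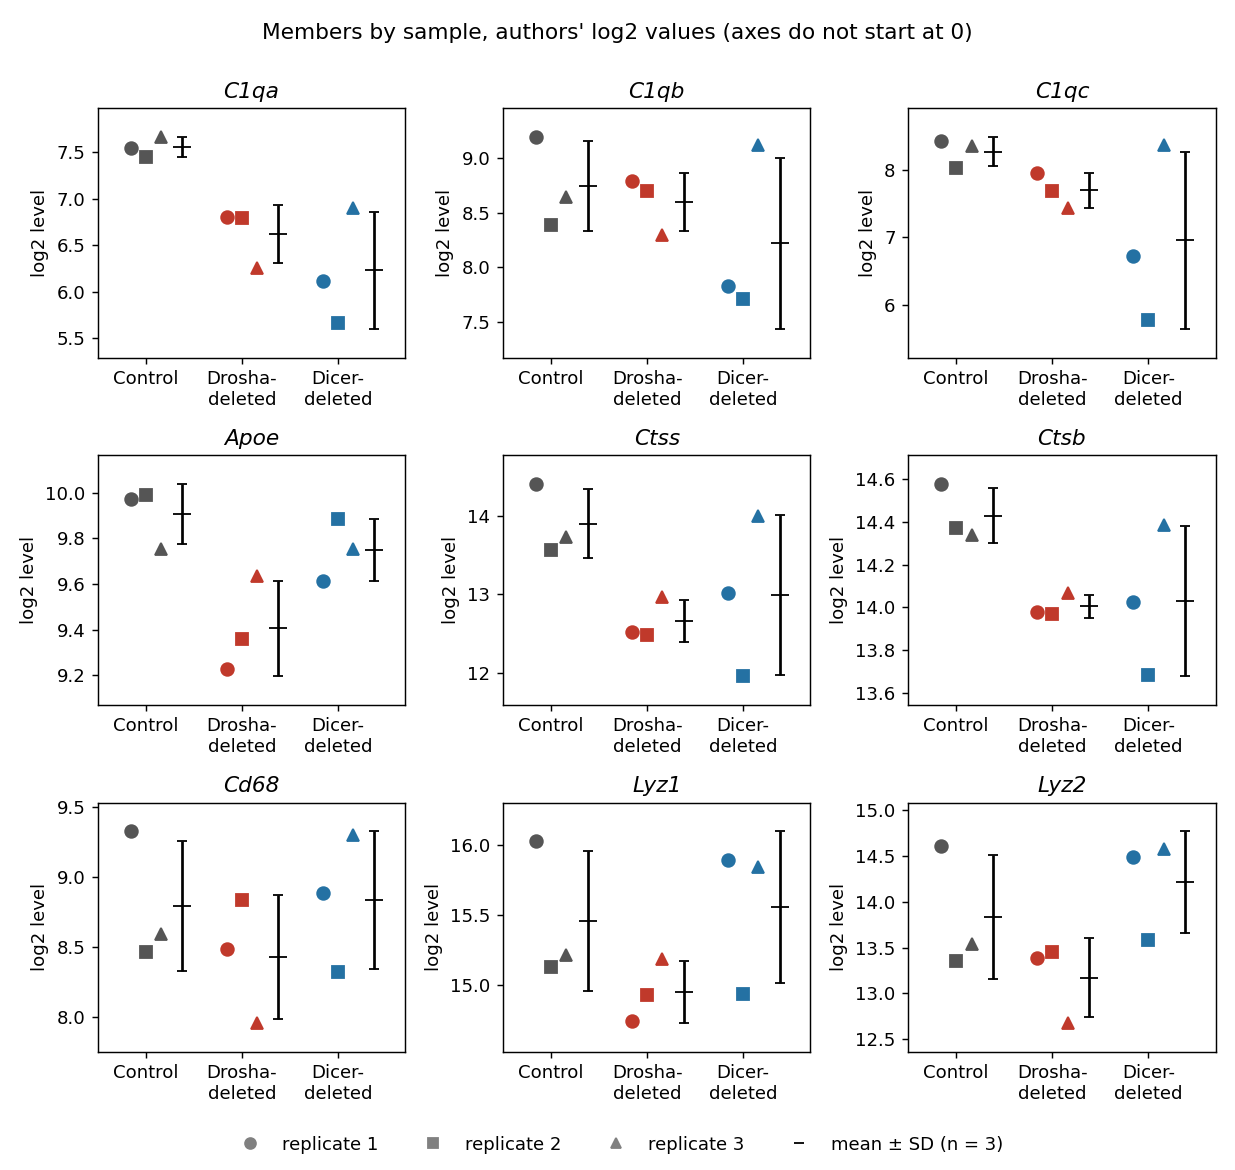
Authors' log2 level of each of the 9 genes in each sample, by group, with a point per sample and the group mean. C1qa is lower in all 6 deleted samples than in all 3 controls, and the Dicer-deleted points of C1qc and Ctss span 5.78 to 8.37 and 11.96 to 14.00.

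Among the C1q subunits, C1qa stood apart from the controls in both deletions. C1qa was at 7.55, 7.45 and 7.66 in the controls, at 6.81, 6.79 and 6.26 in the Drosha-deleted cells and at 6.12, 5.67 and 6.91 in the Dicer-deleted cells. All 6 deleted samples lay below all 3 controls, a pattern that 3.94% of all genes and 1 of the 9 members showed. The Drosha-deleted mean was lower by 0.93 [interval −1.59 to −0.28], or 1.91-fold (adjusted p = 0.119, limma). The Dicer-deleted mean was lower by 1.32 [interval −1.98 to −0.67], or 2.51-fold (adjusted p = 0.132, limma). C1qa was not well above background in Dicer-deleted replicate 2, so its level there is only a bound, and the Dicer-deleted mean and fold rest partly on it.

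C1qc, the subunit that shares the locus, was at 8.42, 8.02 and 8.35 in the controls, at 7.95, 7.69 and 7.43 in the Drosha-deleted cells and at 6.72, 5.78 and 8.37 in the Dicer-deleted cells. The Drosha-deleted samples all lay below the controls, with a difference of −0.57 (adjusted p = 0.498, limma). The Dicer-deleted samples did not: replicate 3 was at the control level, and replicate 2 was not well above background. The Dicer-deleted difference was −1.31 [interval −2.51 to −0.11], 2.48-fold (adjusted p = 0.205, limma). C1qc was well above background on 2 of the 3 Dicer-deleted arrays, so this mean and fold rest partly on a value that is only a bound. With Dicer-deleted replicate 3 left out the difference was −2.01, which rests on that value and replicate 1, and with replicate 2 left out it was −0.72. Replicate 3 taken as the only Dicer-deleted sample gave 0.10. C1qc is printed on 10 spots per array, which differed within an array by an SD of 0.087 to 0.20.

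C1qb was at 9.19, 8.39 and 8.64 in the controls, at 8.79, 8.70 and 8.29 in the Drosha-deleted cells and at 7.83, 7.70 and 9.12 in the Dicer-deleted cells. The groups overlapped, and the differences from control were −0.15 (adjusted p = 0.818, limma) and −0.52 (adjusted p = 0.408, limma). The first turned sign without control replicate 1 (0.08), without Drosha-deleted replicate 3 (0.0058) and with array weights (0.13), and was −0.32 without control replicate 2 and −0.24 without Drosha-deleted replicate 1. The second was −0.97 without Dicer-deleted replicate 3, −0.26 without Dicer-deleted replicate 2, −0.33 without Dicer-deleted replicate 1 and −0.30 without control replicate 1. The level of C1qa less that of C1qb on the same array was −1.64, −0.94 and −0.98 in the controls, −1.98, −1.91 and −2.03 in the Drosha-deleted cells, and −1.71, −2.04 and −2.22 in the Dicer-deleted cells. It lay lower in every deleted sample than in every control, with control replicate 1 close to Dicer-deleted replicate 1. The value of Dicer-deleted replicate 2 rests on a C1qa level that is only a bound. This difference was not tested, and how many other pairs of genes share the pattern was not counted.

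Apoe, which carries cholesterol and is a target of liver X receptors in macrophages, was at 9.97, 9.99 and 9.75 in the controls and at 9.23, 9.36 and 9.63 in the Drosha-deleted cells. The Drosha-deleted samples all lay below the controls, by −0.50 on average [interval −0.83 to −0.17], or 1.41-fold (adjusted p = 0.112, limma). The Dicer-deleted cells, at 9.61, 9.88 and 9.75, overlapped the controls and differed by −0.16 (adjusted p = 0.525, limma), or by −0.09 without Dicer-deleted replicate 1. Between the deletions the difference was −0.34 (adjusted p = 0.854, limma). Apoe also had the smallest spread among the Dicer-deleted samples of the 9 genes (SD 0.14).

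Both cathepsins lay below control without overlap in the Drosha-deleted cells, in the authors' values. Ctss, which helps load antigen onto class II molecules, was at 14.41, 13.57 and 13.73 in the controls and at 12.52, 12.48 and 12.97 in the Drosha-deleted cells, without overlap. The difference was −1.24 [interval −2.27 to −0.22], or 2.37-fold (adjusted p = 0.137, limma). In the Dicer-deleted cells it was at 13.02, 11.96 and 14.00, which overlapped the controls (difference −0.91, adjusted p = 0.266, limma). Dicer-deleted replicates 2 and 3 lay 4.12-fold apart, and the difference was −1.41 without replicate 3 and −0.39 without replicate 2.
Ctsb, a cathepsin that degrades protein in the lysosome, was at 14.58, 14.37 and 14.34 in the controls, at 13.98, 13.97 and 14.06 in the Drosha-deleted cells and at 14.02, 13.68 and 14.39 in the Dicer-deleted cells. The Drosha-deleted samples all lay below the controls by −0.42 on average, or 1.34-fold (adjusted p = 0.164, limma). The Dicer-deleted difference was −0.40 (adjusted p = 0.225, limma), with replicate 3 inside the control range, and it was −0.22 without replicate 2.

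For Cd68 and the lysozymes the Dicer-deleted and control ranges overlapped, as they did for every member but C1qa. Cd68 was at 9.32, 8.46 and 8.59 in the controls, at 8.49, 8.83 and 7.96 in the Drosha-deleted cells and at 8.88, 8.32 and 9.30 in the Dicer-deleted cells. The groups overlapped, with differences from control of −0.37 (adjusted p = 0.480, limma) and 0.04 (adjusted p = 0.948, limma). Without control replicate 1 these were −0.10 and 0.31, without Drosha-deleted replicate 2 the first was −0.57, and without Drosha-deleted replicate 3 it was −0.13. The second was 0.30 without Dicer-deleted replicate 2, 0.02 without Dicer-deleted replicate 1, −0.19 without Dicer-deleted replicate 3, −0.12 without control replicate 2 and −0.06 without control replicate 3.
Lyz1 was at 16.03, 15.13 and 15.21 in the controls, at 14.74, 14.93 and 15.18 in the Drosha-deleted cells and at 15.90, 14.94 and 15.84 in the Dicer-deleted cells. Its differences from control were −0.51 (adjusted p = 0.311, limma) and 0.10 (adjusted p = 0.864, limma). Without control replicate 1 these were −0.22 and 0.39. The second was 0.41 without Dicer-deleted replicate 2, and it turned to between −0.07 and −0.02 without each of control replicates 2 and 3 and Dicer-deleted replicates 1 and 3. The Drosha-deleted and control ranges overlapped at replicate 3 of the former.
Lyz2, the myeloid lysozyme, was at 14.61, 13.35 and 13.54 in the controls, at 13.39, 13.45 and 12.68 in the Drosha-deleted cells and at 14.49, 13.58 and 14.58 in the Dicer-deleted cells. Its differences from control were −0.66 (adjusted p = 0.292, limma) and 0.39 (adjusted p = 0.564, limma). Without control replicate 1 these were −0.27 and 0.77. The first was −0.41 without Drosha-deleted replicate 3. The second was 0.14 without control replicate 2, 0.24 without control replicate 3, 0.25 without Dicer-deleted replicate 1, 0.70 without Dicer-deleted replicate 2 and 0.20 without Dicer-deleted replicate 3. Every Drosha-deleted sample lay below every Dicer-deleted one, by −1.05 on average [interval −1.93 to −0.17], or 2.07-fold (adjusted p = 0.754, limma). The 3 control values of Lyz2 spanned 2.40-fold, with replicate 1 high.

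All 9 members had a Drosha-deleted mean below the control mean, as 50.3% of all genes did. Members were below control without overlap in 5 of 9 cases (C1qa, C1qc, Apoe, Ctss and Ctsb), against 10.5% of all genes. At an unadjusted p under 0.05, 4 of 9 members were lower (C1qa, Apoe, Ctss and Ctsb), against 11.5% of all genes. The members' median difference was −0.51, with a range from −1.24 to −0.15, and that of all genes was −0.00. These shares are above the background, while the call after adjustment was 0 of 9. Besides the turns of C1qb given above, the sign turned for Ctsb in scanner values scaled to the 75th percentile (0.16). After normexp and quantile normalisation of the scanner values it turned for C1qc (0.12), Apoe (0.22) and Cd68 (0.14). Both of these scanner settings use the array of control replicate 2, and the median difference of all genes was then 0.36 and 0.21, so that each member lies below that median except Apoe after normexp. With that array left out, the median of all genes was −0.02, all 9 members were below 0 and their median was −0.72.

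In the Dicer-deleted cells 6 of 9 members were below control, against 50.2% of all genes, and 1 did not overlap the controls (C1qa), against 9.95%. At an unadjusted p under 0.05, 3 of 9 were lower (C1qa, C1qc and Ctsb), against 9.11% of all genes. The members' median difference was −0.40, with a range from −1.32 to 0.39. Cd68, Lyz1 and Lyz2 were the 3 above 0, and against control replicate 1 alone, which was the highest of the controls for each, they were at −0.49, −0.47 and −0.39. In scanner values at the 75th percentile, 4 of 9 members were below 0 in Dicer-deleted cells. Their median was 0.20, beside 0.38 for all genes, and Apoe (0.35) and Ctsb (0.20) were above 0. After normexp and quantile normalisation 6 of 9 were below 0, with a median of −0.29 beside 0.20 for all genes. Without the array of control replicate 2, scanner values put 8 of 9 below 0, with a median of −0.47 against 0.01 for all genes. Between the deletions, 1 of 9 was lower in Drosha-deleted cells without overlap (Lyz2), against 6.79%, and 2 of 9 were lower at an unadjusted p under 0.05 (Apoe and Lyz2), against 2.43%. The comparisons with control share the same 3 control samples.

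**Figure D2:**
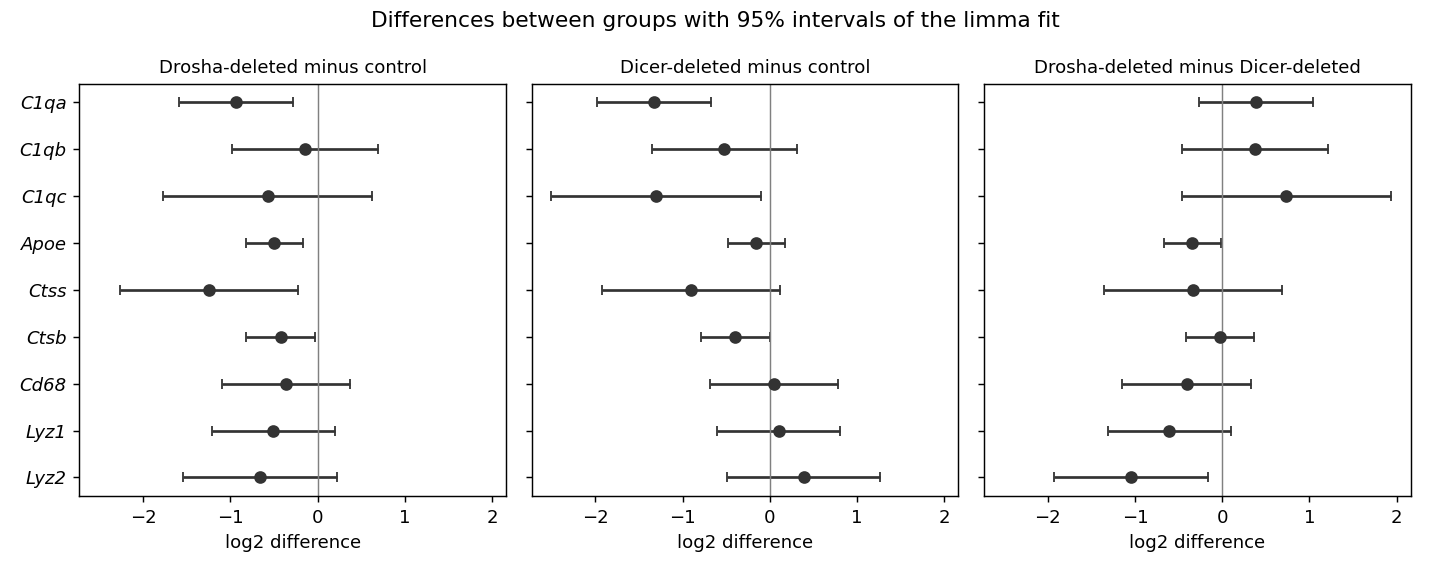
Difference in log2 level of each gene between groups, with 95% confidence intervals, from the limma fit over 9 samples. The Drosha-deleted points lie below 0 for all 9 genes, and the Dicer-deleted points run from −1.32 (C1qa) to 0.39 (Lyz2).

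Of the fits that left out 1 sample, the one without control replicate 1 called the most genes in each comparison with control. It held the highest value of the 9 samples for 7 members and had an array weight of 0.147 in limma's weighting, where the other samples had 0.366 to 2.45. Without it, 1 member passed between Dicer-deleted and control cells, C1qa at −1.33 (adjusted p = 0.0222, limma), while the share of all genes called rose to 30.5%. Between Drosha-deleted and control cells 0 members passed without it, against 33.6% of all genes. With array weights, C1qa, Apoe, Ctss and Ctsb passed between Drosha-deleted and control cells (−0.84, −0.53, −1.16 and −0.38), against 50.6% of all genes. With the same weights C1qa and C1qc (−1.43 each) and Lyz2 (0.77, higher) passed between Dicer-deleted and control cells, against 43.5% of all genes, and 0 members against 0.652% passed between the deletions. These shares of 4 and 3 of 9 are near the background of the weighted fit. The test of any difference called 6 members with weights, against 50.6% of all genes, and 1 member without control replicate 1, against 29.8%.

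The spread within groups was itself uneven. The median SD of the members was 0.41 in the controls, 0.27 in the Drosha-deleted cells and 0.55 in the Dicer-deleted cells, against 0.24, 0.16 and 0.15 for all genes. In the Dicer-deleted cells 6 members (C1qa, C1qb, C1qc, Ctss, Lyz1 and Lyz2) exceeded the 95th percentile of the SD of all genes, 0.50, and in the other groups 0 did. Dicer-deleted replicate 2 was the lowest of its group for 8 members and replicate 3 the highest for 7. The mean of the members, each less its own mean over the 9 samples, was −0.13, −0.69 and 0.50 in the Dicer-deleted replicates. It was 0.71, 0.11 and 0.23 in the controls and −0.20, −0.17 and −0.36 in the Drosha-deleted replicates.

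**Figure D3:**
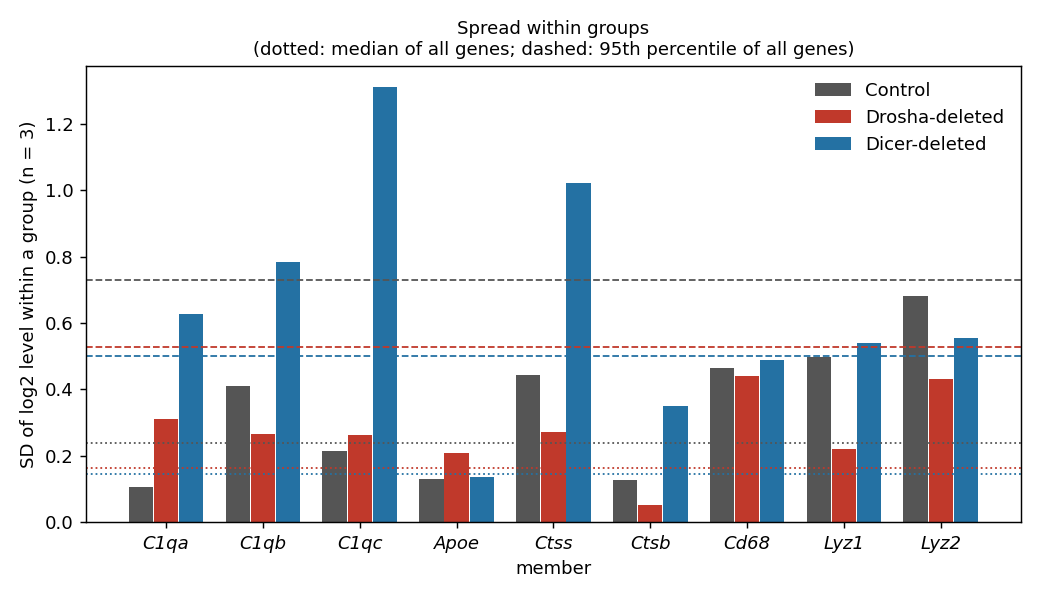
SD of the log2 level within each group of 3 samples for the 9 genes, beside the median and the 95th percentile over all 23016 genes or regions. In the Dicer-deleted group 6 of 9 genes lie above the 95th percentile of 0.50.

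Across the 9 samples the members correlated unequally. The 36 pairs correlated at −0.08 to 0.98 (Pearson's r, median 0.54), which describes samples that share arrays and normalisation. C1q and cathepsin genes correlated with each other at 0.66 to 0.98 over 10 pairs, with the highest value for Ctss and Ctsb. Cd68 and the lysozymes correlated at 0.73 to 0.91 over 3 pairs. The C1q genes correlated with the lysozymes at only 0.15 to 0.30 over 6 pairs, and Apoe with the other members at −0.08 to 0.52. The genes other than members closest to the members' mean pattern, by Pearson's r over 9 samples, were Slc15a3 (0.96), F7 (0.96), Fabp5 (0.96), Expi (0.94), Lilrb3 (0.94), Lpl (0.94), Mmp8 (0.94) and Tctex1d1 (0.93). F7 encodes coagulation factor VII, Lpl lipoprotein lipase and Mmp8 a neutrophil collagenase.

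**Figure D4:**
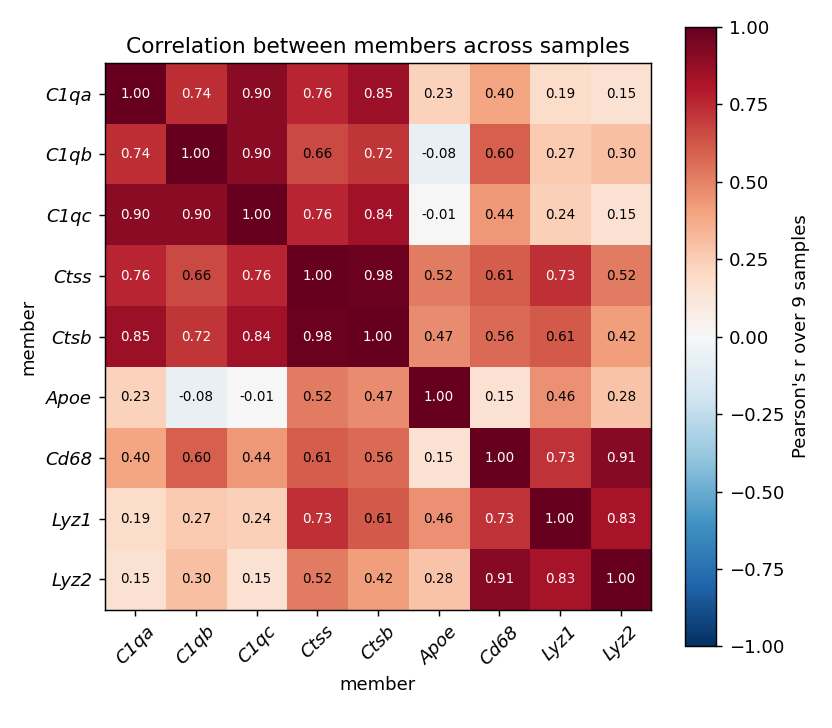
Pearson's r between the log2 levels of each pair of the 9 genes over the 9 samples. The C1q and cathepsin block lies at 0.66 to 0.98, and the C1q genes with the lysozymes at 0.15 to 0.30.

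Other complement genes are given for comparison with the C1q genes. Of 29 listed, 26 were tested and 0 were called in any comparison (limma). At an unadjusted p under 0.05, 5 were lower and 1 higher in Drosha-deleted cells, and the list's median difference was −0.06. In Dicer-deleted cells 3 were lower and 2 higher, with a median of −0.00. Of all genes, 11.5% were lower and 15.5% higher at that threshold in Drosha-deleted cells, and 9.11% and 12.8% in Dicer-deleted cells. In scanner values without the array of control replicate 2 the medians were −0.15 and −0.20, beside −0.02 and 0.01 for all genes. The genes with the smallest p included Cd59a, an inhibitor of the membrane attack complex (−0.95 and −0.92 in Drosha-deleted and Dicer-deleted cells), Cfb of the alternative pathway (−1.88 and −0.60) and the integrin subunit gene Itgam, part of a complement receptor (0.72 and 0.70).
Other cathepsin, cystatin and lysosomal genes numbered 36, all tested, and 0 were called. In Drosha-deleted cells 5 were lower and 4 higher at an unadjusted p under 0.05, against 11.5% and 15.5% of all genes. In Dicer-deleted cells 5 were lower and 0 higher, against 9.11% and 12.8%. Their medians were −0.05 and −0.04. In scanner values without the array of control replicate 2, 29 of 36 were below control in Drosha-deleted cells (median −0.17) and 25 of 36 in Dicer-deleted cells (median −0.11). Ctsw, with the smallest F-test p of this list, was at 0.51 and −0.24. Ctsk, a collagen-degrading cathepsin, was at −1.28 and −1.17, and Cst7, a cystatin, at 0.82 and 0.15.
Genes of ApoE-linked lipid transport were tested for 17 of 19, and 0 were called. At an unadjusted p under 0.05, 6 were lower and 1 higher in Drosha-deleted cells (median −0.16), against 11.5% and 15.5% of all genes. In Dicer-deleted cells 4 were lower and 0 higher (median −0.36), against 9.11% and 12.8%. Pltp, which had the smallest F-test p of this list, stood at −0.11 and −0.48. Nr1h3, which encodes LXR alpha, stood at −0.59 and −0.36, the cholesterol exporter gene Abca1 at −0.61 and −0.36, and the scavenger receptor gene Msr1 at −1.42 and −0.76. The list's medians turned to 0.18 and 0.03 in scanner values with the array of control replicate 2, and were −0.39 and −0.38 without it.

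Some lists of cell type markers lay mostly below control, as the members did, and others did not. Their part in these results was not tested. Of 29 monocyte and macrophage markers 26 were tested. In Drosha-deleted cells 21 were below control (median −0.39), and in Dicer-deleted cells 22 (median −0.36), against 50.3% and 50.2% of all genes. At an unadjusted p under 0.05, 9 were lower and 2 higher in Drosha-deleted cells, and 2 lower and 2 higher in Dicer-deleted cells. Of all genes, 11.5% were lower and 15.5% higher in the former, and 9.11% and 12.8% in the latter. Itgam, also on this list, stood higher in both deletions (0.72 and 0.70). In scanner values without the array of control replicate 2 the medians of that list were −0.68 and −0.61, and with it, at the 75th percentile, −0.16 and 0.02, beside 0.36 and 0.38 for all genes. The called ones were Clec4d (−1.21, adjusted p = 0.0290, limma) and Cd14 (−1.26, adjusted p = 0.0300, limma), both lower in Drosha-deleted cells. The summed level of the list, on a log2 scale, was 16.85 to 17.38 in the controls, 16.96 to 17.04 in the Drosha-deleted cells and 16.64 to 17.33 in the Dicer-deleted cells, with Dicer-deleted replicate 2 lowest. Of 15 dendritic cell markers tested, 0 were called, 14 were below control in Dicer-deleted cells (median −0.74) and 9 of them at an unadjusted p under 0.05, and the median between Drosha-deleted and Dicer-deleted cells was 0.91. Of 9 megakaryocyte and platelet markers, 0 were called. In Dicer-deleted cells 8 were below control (median −0.71), 7 of them at an unadjusted p under 0.05. In Drosha-deleted cells 8 were below control (median −0.18), 3 of them at that threshold. Of 16 neutrophil markers, 3 were below control in Drosha-deleted cells and their median was 0.35, opposite in sign to the members' median. Neutrophil markers summed to 19.56 to 20.39 in the controls, 20.05 to 20.48 in the Drosha-deleted cells and 19.08 to 20.36 in the Dicer-deleted cells. Eosinophil markers summed to 12.74 to 13.59, 13.33 to 13.96 and 11.76 to 13.60 in the same order. Dicer-deleted replicate 2 was the lowest of the 9 samples in both lists, as it was for 5 members. Of 13 lymphoid markers 5 were tested and 0 were called. In Drosha-deleted cells 1 was below control (median 0.29), and in Dicer-deleted cells 2 were (median 0.11). Cd4 stood at 1.46 and 1.43 in the same order, Cd3e at 0.81 and 0.49, and Il7r at −0.88 and −1.06. The B cell gene Cd79a stood at 0.27 and 0.11, while the B cell genes Pax5 and Ebf1 did not pass the filter on dim probes.

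**Figure D5:**
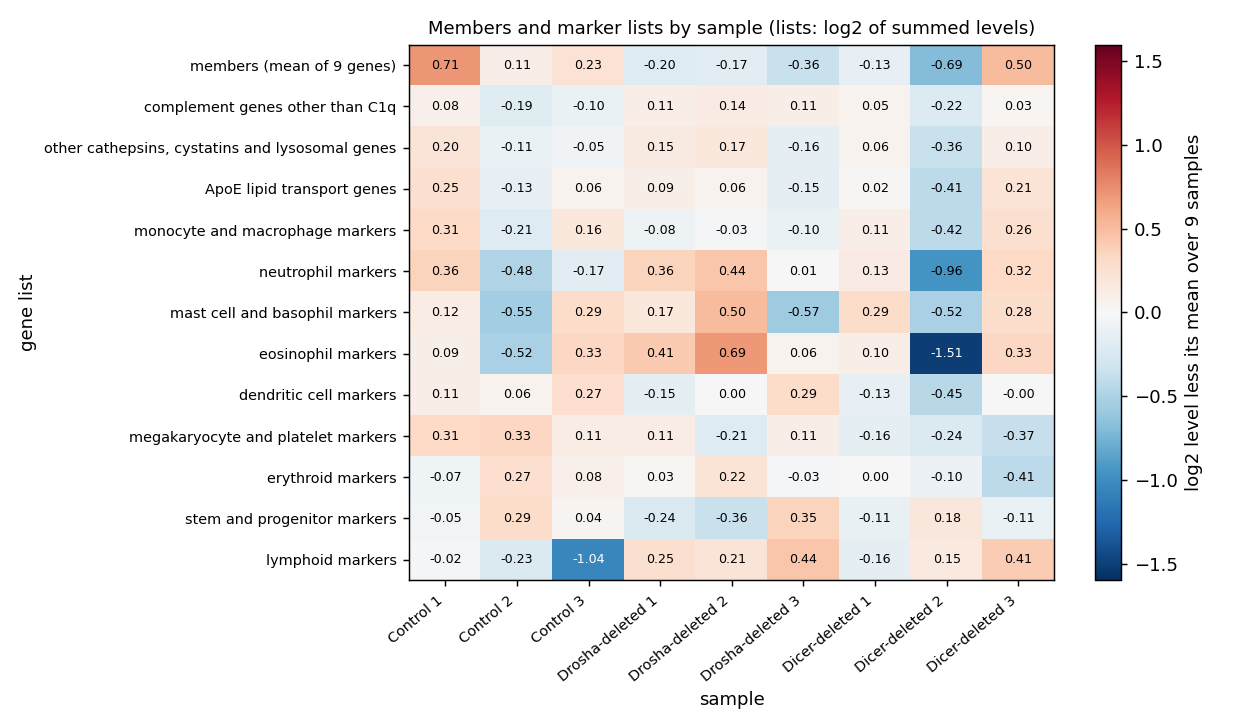
Rows are the mean of the 9 genes (top) and, for each gene list, the log2 of its summed levels. Columns are samples, and colour is the difference from the row's own mean over the 9 samples. Dicer-deleted replicate 2 is the lowest sample for the monocyte and macrophage list (16.64), the neutrophil list (19.08) and the eosinophil list (11.76).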

How the data were processed

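RNA of 9 samples was measured on Agilent arrays of design 028005 (mm9). The authors deposited log2 values whose columns have near-equal medians (6.36 to 6.38), with limma named in the submitters' processing notes without a version. The deposited scanner files hold Cy3 intensity values made with Feature Extraction 10.7.3.1, per the file headers. How columns were weighted or background-corrected is not given in the sources used here.

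Members were defined on the authors' values, which were used for the main tests. Scanner values were alternatives, since control replicate 2's scanner file did not match its column. Of 62976 spots, 3671 control spots were left out. Of 55681 probes, 31485 were kept for signal well above background throughout 1 or more groups, and each gene took its probe with the highest mean. Groups were compared with limma 3.58.1 (R 4.3.3, data.table version 1.17.8), a mean per group over 9 samples, Benjamini-Hochberg adjustment and a threshold of 0.05. The fit was tested on simulated data. The number of arrays limits the precision. Members, gene lists and tests were chosen with earlier results of these data known. Genes named from lists were up to 4 with the smallest F-test p, plus any called, and Drosha and Dicer1 checked the labels. Samples with the same replicate number did not deviate together, so samples were not paired.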

Additional observations from a re-analysis of the deposited data

How the results depend on the processing

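Members called were 0 under 78 of 83 alternative counts. The exceptions were array weights (4 between Drosha-deleted and control, 3 between Dicer-deleted and control and 6 for any difference) and the fits without 1 sample, where leaving out control replicate 1 gave 1 (C1qa) between Dicer-deleted and control and 1 for any difference. Leaving out 1 sample gave 0 to 1 members in those 2 tests and 0 to 0 in the others. Members called with array weights turned sign elsewhere, uncalled: between Drosha-deleted and control, Apoe (0.22) after normexp and Ctsb (0.16) in scanner values at the 75th percentile, and between Dicer-deleted and control, C1qc (0.10) with replicate 3 as the only Dicer-deleted sample and Lyz2 (−0.39) with control replicate 1 as the only control. Counts of all genes, given for Drosha-deleted against control, Dicer-deleted against control, Drosha-deleted against Dicer-deleted and any difference, were 39, 4, 13 and 21. They were 11637, 10023, 150 and 11654 with array weights, and 1, 0, 1 and 1 in scanner values after normexp and quantile normalisation. In scanner values at the 75th percentile they were 9, 3, 2 and 11, and without the array of control replicate 2 they were 10, 4, 5 and 10. With slide as a block they were 13, 3, 7 and 12. Control replicate 3 was alone on its slide, so this is the same fit as leaving it out, counted again among the 83. It cannot show an effect of slide. With no filter they were 25, 2, 10 and 14, and with probes above background on all 9 arrays they were 31, 2, 9 and 15, where C1qa and C1qc were not tested. With the replicate number as a block they were 4, 0, 5 and 3, and 0 members were called. Samples with the same number deviated together at r of −0.28 to 0.24 over 9 pairs, and those with different numbers at −0.30 to 0.28 over 18. Fitting only the groups compared gave 5, 0 and 11. For Drosha-deleted against control, this is the same fit as taking Dicer-deleted replicate 3 as the only Dicer-deleted sample. For Drosha-deleted against Dicer-deleted, it is the same fit as taking control replicate 1 as the only control. These repeats are also counted again among the 83. Chosen after seeing the data, control replicate 1 as the only control gave 38, 21, 11 and 30, and Dicer-deleted replicate 3 as the only Dicer-deleted sample gave 5, 0, 0 and 3. Leaving out 1 sample gave 4 to 7743, 0 to 7020, 4 to 16 and 6 to 6866, with the highest without control replicate 1 in each. The cause of these shifts was not tested. Array number and the dim levels of C1qa and C1qc limit the precision.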
